A study of Homo sapiens with 26 samples.

Results

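Loss of the Mediator kinases was examined in human colorectal carcinoma cells whose BET bromodomain proteins were displaced with JQ1. 5 of the study's 26 RNA sequencing libraries make up this experiment, chosen by their labels: 2 libraries of DKO-C1 cells with JQ1 and 3 libraries of HCT116 cells with JQ1. HCT116 is an established colon carcinoma cell line, and here the control. DKO-C1 is a single HCT116 subline labelled as a CRISPR knockout of both CDK8 and CDK19. An effect of the knockouts therefore cannot be told apart from other differences between this subline and its parent, or between their libraries. The genotype effect without JQ1 was measured in 3 libraries of DKO-C1, 3 of the second double-knockout subline DKO-C2 and 3 of HCT116, and serves for comparison. The columns of DKO-C2 carry a clone number that no label has and were assigned by elimination, so values of DKO-C2 rest on that assignment. No source used here gives the dose, duration or vehicle of JQ1. All cells grew as adherent monolayers in serum-containing medium, and total RNA was sequenced with ERCC spike-in RNA added to each of these groups, per the labels. The labels do not say whether the replicates came from separate cultures, so p-values measure only a spread between libraries, which may be technical. That spread was estimated over all 26 libraries of the study in 9 groups, which include single knockouts of CDK8 or CDK19.

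CDK8 and CDK19 are alternative kinases of the Mediator kinase module, which also holds cyclin C, MED12 or MED12L and MED13 or MED13L. The module binds the Mediator complex reversibly, and Mediator passes signals from transcription factors on enhancers to RNA polymerase II. JQ1 competes with acetylated lysines for the bromodomains of BET proteins, and in many tumour lines it lowers MYC and raises HEXIM1, which encodes an inhibitor of the elongation kinase P-TEFb.

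4 promoters are shown because the largest changes of single genes or of groups below fall on genes of their kind: CTGF, a target of YAP and TEAD that rose, CHAC1, a target of ATF4 that fell, and CCNB2 and MVD, members of the mitosis and cholesterol synthesis groups whose genotype effect differed with JQ1. Each is the 250 bases before the transcription start in RefSeq (GRCh38.p14), printed along the gene's own strand. Capitals mark GGAATG in CTGF (chr6:131951373-131951622, minus strand), TGATGCAA in CHAC1 (chr15:40953221-40953470, plus strand) and CCAAT in CCNB2 (chr15:59104896-59105145, plus strand) and MVD (chr16:88663092-88663341, minus strand), or the reverse complement where the motif lies on the other strand.
CTGF: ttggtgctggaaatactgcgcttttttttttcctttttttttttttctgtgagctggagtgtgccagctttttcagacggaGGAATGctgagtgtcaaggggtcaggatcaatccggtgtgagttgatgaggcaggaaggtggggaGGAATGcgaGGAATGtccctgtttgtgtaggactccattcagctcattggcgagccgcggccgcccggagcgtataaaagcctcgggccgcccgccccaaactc
CHAC1: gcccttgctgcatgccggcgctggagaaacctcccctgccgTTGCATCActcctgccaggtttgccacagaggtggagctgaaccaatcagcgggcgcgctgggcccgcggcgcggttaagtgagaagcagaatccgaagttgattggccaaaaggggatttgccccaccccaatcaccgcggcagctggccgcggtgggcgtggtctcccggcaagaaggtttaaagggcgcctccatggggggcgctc
CCNB2: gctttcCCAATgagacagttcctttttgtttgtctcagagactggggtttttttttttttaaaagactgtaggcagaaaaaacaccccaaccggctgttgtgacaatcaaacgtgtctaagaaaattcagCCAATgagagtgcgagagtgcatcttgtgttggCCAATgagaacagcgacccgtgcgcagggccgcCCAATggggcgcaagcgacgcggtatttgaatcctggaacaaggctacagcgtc
MVD: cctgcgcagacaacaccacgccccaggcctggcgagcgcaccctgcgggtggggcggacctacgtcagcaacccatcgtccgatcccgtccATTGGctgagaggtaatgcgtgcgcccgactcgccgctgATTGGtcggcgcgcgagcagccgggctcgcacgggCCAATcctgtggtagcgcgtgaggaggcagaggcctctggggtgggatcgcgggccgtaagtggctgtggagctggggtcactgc
Both strands were searched. GGAATG, the core recognised by TEAD factors, was found in 11.9% of all 35116 promoters and in 9 of the 19 tested YAP and TEAD targets with a promoter in the table (47.4%). TGATGCAA, a composite site of ATF4 and C/EBP factors, was found in 0.772% of all promoters and in 3 of 20 integrated stress response genes (15%). CCAAT, bound by NF-Y, was found in 32% of all promoters, in 20 of 24 mitosis genes (83.3%) and in 16 of 18 cholesterol synthesis genes (88.9%). A match of letters is a description of the sequence and not a measurement of binding. The YAP and TEAD list and the stress response list hold targets of these factors, so a higher share there is built in. None of the shares is a result about DKO-C1 or JQ1.

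The 5 libraries were close in depth, with 18415267 and 18660242 counts on genes in DKO-C1 with JQ1 and 18291536 to 18368637 in HCT116 with JQ1. ERCC transcripts gave 2.53 and 3.12 counts per 100 gene counts in DKO-C1 with JQ1, against 1.33 to 1.58 in HCT116 with JQ1. Mitochondrial genes held 5.41% and 6.13% of gene counts in DKO-C1 with JQ1 and 6.14% to 8.52% in HCT116 with JQ1. Epithelial markers were present in both groups, with a summed level of 7140 to 7270 CPM (read counts divided by the TMM-adjusted library size) in DKO-C1 with JQ1 and 4880 to 5360 CPM in HCT116 with JQ1. Flagged genes carried the higher sum, since unflagged epithelial markers summed to 1000 and 978 CPM in DKO-C1 with JQ1 and to 1120, 1060 and 1080 CPM in HCT116 with JQ1. Markers of fibroblasts summed to 21.3 to 24.6 CPM in DKO-C1 with JQ1 and to 16.3 to 20.8 CPM in HCT116 with JQ1. Markers of leukocytes and of endothelium summed to under 1 CPM in every library. COL1A2, LUM, PDGFRA, FAP, CD3E and CD3D had no count in either group.

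The double-knockout libraries stood apart in their counts on copied genes. Processed pseudogenes, which are spliced copies of gene transcripts, held 0.208% and 0.203% of gene counts in DKO-C1 with JQ1, against 2.52% to 2.63% in HCT116 with JQ1. The same gap stood between DKO and HCT116 libraries without JQ1, and libraries of single CDK8 or CDK19 knockouts held 2.24% to 2.76%. A difference in how the DKO libraries were prepared or counted cannot be told apart from genotype in any comparison of DKO with HCT116. It was not tested. Of 1346 tested processed pseudogenes, 1131 were called lower under JQ1 and 13 higher, with a median log2 fold change of -3.93. Such a gap can reach any gene that shares sequence with a copy elsewhere or whose exons overlap another gene. Protein-coding genes were therefore split into 10583 unflagged genes, which share under 10% of their 50-base words with other transcripts and overlap no exon on their own strand, and 2615 flagged genes. Overlap on the opposite strand remains in the unflagged set and is named where the overlapping gene codes for protein, because the strand setting of the counting is not given in the sources used here.

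**Figure D1:**
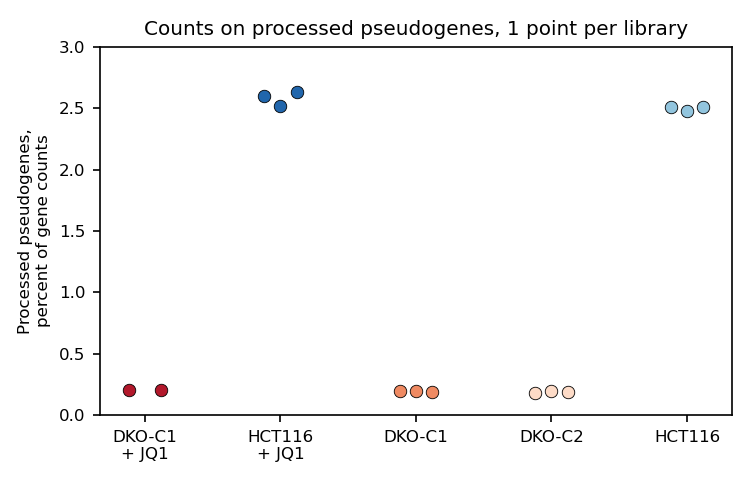
Share of gene counts on processed pseudogenes (percent, vertical axis) in the libraries of DKO-C1 with JQ1, HCT116 with JQ1, DKO-C1, DKO-C2 and HCT116, 1 point per library. All DKO libraries lie near 0.2%, and all HCT116 libraries lie near 2.5%.

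Under JQ1, 8036 of 17198 tested genes were called between DKO-C1 and HCT116 at an adjusted p under 0.05 (edgeR's quasi-likelihood test), 4176 higher (24.3%) and 3860 lower (22.4%). Among the 10583 unflagged protein-coding genes, 3260 were higher (30.8%) and 1860 lower (17.6%). 506 of these rises and 200 of these falls were at least 2-fold, so most of the called changes were small. These directions are relative to the TMM-adjusted size of each library. When libraries were scaled to the ERCC spike-ins, the median log2 fold change of all tested genes shifted by -0.91, and 328 genes were called higher and 13565 lower. In bulk RNA, less RNA per cell and fewer cells behind the same amount of spike-in cannot be told apart, nor can fewer expressing cells and less RNA of a gene per cell. Fold changes below use TMM, which multiplies each library size by a factor (0.992 and 0.989 in DKO-C1 with JQ1, 0.956 to 0.960 in HCT116 with JQ1). For short, this is called scaling to total RNA, and its values are called relative to total RNA. A gene group whose balance turns under the ERCC scaling is named as such. With 13565 of 17198 tested genes lower there, a list that is mostly lower under ERCC scaling may only follow the background.

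CDK8 transcripts were present in DKO-C1 with JQ1 at 45.5 and 43.2 CPM, against 51.0, 53.5 and 54.1 CPM in HCT116 with JQ1. Both DKO-C1 libraries were below all HCT116 libraries, and the log2 fold change was -0.25 ± 0.06 (SE, adjusted p = 0.000824). CDK19 stood at 38.6 and 36.7 CPM in DKO-C1 with JQ1 and at 34.0, 36.8 and 37.9 CPM in HCT116 with JQ1, with overlapping libraries (log2 fold change 0.06 ± 0.08, adjusted p = 0.597). Counts over a whole gene do not show an edit within it, so neither level checks the knockout label. Of the 7 genes of the kinase module, MED13 (0.40 ± 0.07), MED12L (0.79 ± 0.14) and MED12 (0.18 ± 0.07) were called higher relative to total RNA, whereas under ERCC scaling none was called higher and 6 were called lower. The call of MED12 was lost without any of 4 of the libraries (replicates 1 and 3 of HCT116 with JQ1, replicates 1 and a of DKO-C1 with JQ1), at log2 fold changes of 0.16 to 0.19. MED12L shares exons on the opposite strand with IGSF10.

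MYC, the transcription factor gene on which JQ1 acts in many tumour cells, stood at 118 and 129 CPM in DKO-C1 with JQ1, against 281, 256 and 287 CPM in HCT116 with JQ1. The groups were well apart, and MYC was 2.22-fold lower in DKO-C1 with JQ1 (log2 fold change -1.15 ± 0.07, adjusted p = 3.77e-16). Without JQ1, MYC stood at 150, 151 and 149 CPM in DKO-C1 and at 423, 561 and 514 CPM in HCT116, a log2 fold change of -1.73. The genotype effect on MYC was therefore smaller with JQ1, by 0.58 ± 0.09 on the log2 scale (adjusted p = 3.63e-05). HEXIM1, which overlaps a clone-named gene on the opposite strand, stood at 198 and 207 CPM in DKO-C1 with JQ1 and at 235, 227 and 227 CPM in HCT116 with JQ1 (log2 fold change -0.18 ± 0.05, adjusted p = 0.00394). Without replicate 1 of DKO-C1 with JQ1 the fold change of HEXIM1 was -0.15, and the call was lost. HEXIM1 was above its levels without JQ1 in every JQ1 library, since those were 85.6 to 90.2 CPM in DKO-C1 and 96.4 to 98.5 CPM in HCT116.

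Among unflagged genes with at least 5 CPM in the higher group and no overlap between libraries, the 12 largest rises included secreted and matrix proteins. CYR61 (CCN1), a secreted matricellular protein (chr1:85580761-85583962), stood at 350 and 388 CPM in DKO-C1 with JQ1, against 32.9, 29.6 and 35.8 CPM in HCT116 with JQ1. CTGF (CCN2), its close relative (chr6:131948176-131951373), stood at 102 and 108 CPM in DKO-C1 with JQ1, against 9.50, 8.26 and 11.4 CPM in HCT116 with JQ1. CYR61 was 11.2-fold and CTGF 10.8-fold higher in DKO-C1 with JQ1, with log2 fold changes of 3.49 ± 0.13 and 3.43 ± 0.13. SPARC, a collagen-binding matricellular protein (chr5:151661096-151687165), stood at 24.3 and 23.5 CPM in DKO-C1 with JQ1, against 0.115, 0.114 and 0 CPM in HCT116 with JQ1. SPARC was near the limit of detection in HCT116, so its fitted log2 fold change of 8.17 rests on very few counts in that group, and the noncoding gene CLMAT3 overlaps it on the opposite strand.

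Regulators and membrane proteins made up much of the rest. GLIS3, a zinc finger transcription factor gene, stood at 62.4 and 65.4 CPM in DKO-C1 with JQ1, against 5.21, 5.47 and 5.34 CPM in HCT116 with JQ1. The libraries of a group lay within a few percent of each other, and the log2 fold change was 3.58 ± 0.08 (adjusted p = 1.82e-30). PMEPA1, an inhibitor of TGF-beta signalling that is itself induced by it, stood at 11.7 and 12.7 CPM in DKO-C1 with JQ1 and at 0.744, 0.285 and 0.568 CPM in HCT116 with JQ1 (log2 fold change 4.51 ± 0.20). SERPINA1, which encodes alpha-1 antitrypsin, rose by 4.06 ± 0.21 on the log2 scale, LIMS2, an adaptor of integrin-linked kinase, by 3.66 ± 0.20 and ARSJ, an arylsulfatase family gene, by 3.29 ± 0.15. TM4SF18, a tetraspanning membrane protein gene, had 184 counts over the DKO-C1 libraries with JQ1 and 2 over those of HCT116 with JQ1, a ratio of 132 after scaling to library size (95% interval 36.0 to 1100, counting error only). Antisense genes overlap GLIS3 and PMEPA1 (NKILA), and GPR17 overlaps LIMS2 on the opposite strand. The rule also named POLR2F, a subunit shared by RNA polymerases (log2 fold change 7.57), and RPS28, a ribosomal protein (4.50). POLR2F shares exons with C22orf23 and SOX10 on the opposite strand, RPS28 overlaps NDUFA7 and KANK3 and shares 6.28% of its words, and both are uncertain.

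Among the 12 largest falls, ACSL5, a fatty acyl-CoA synthetase gene of the intestinal epithelium (chr10:112374018-112428380), stood at 0.383 and 0.163 CPM in DKO-C1 with JQ1, against 9.96, 9.11 and 9.43 CPM in HCT116 with JQ1. It was 34.0-fold lower (log2 fold change -5.09 ± 0.22, adjusted p = 2.04e-21), with ZDHHC6 on the opposite strand. MEF2C, a MADS-box transcription factor gene of muscle and other lineages, stood at 0.493 and 0.488 CPM in DKO-C1 with JQ1, against 12.5, 12.6 and 11.6 CPM in HCT116 with JQ1 (log2 fold change -4.62 ± 0.25), and antisense genes overlap it. CHAC1, a glutathione-degrading enzyme gene induced by ATF4 (chr15:40952962-40956519), stood at 1.59 and 1.68 CPM in DKO-C1 with JQ1, against 15.9, 17.0 and 17.4 CPM in HCT116 with JQ1. It was 10.2-fold lower (log2 fold change -3.35 ± 0.16, adjusted p = 9.44e-20). MAOB, a mitochondrial monoamine oxidase gene, stood at 5.20 and 6.07 CPM in DKO-C1 with JQ1, against 43.2, 43.4 and 44.9 CPM in HCT116 with JQ1 (log2 fold change -2.96 ± 0.09). EHF, an epithelial ETS factor gene, stood at 1.97 and 2.06 CPM in DKO-C1 with JQ1, against 13.3, 13.7 and 15.4 CPM in HCT116 with JQ1 (log2 fold change -2.80 ± 0.15). No DKO-C1 library reached the lowest HCT116 library for any of these 5 genes, as the rule that named them requires. HTR7, a serotonin receptor gene, fell by 2.57 ± 0.15 on the log2 scale, CPA4, a carboxypeptidase gene, by 2.57 ± 0.19, ARRDC4, an arrestin-domain gene, by 2.38 ± 0.15 and ZNF804A, a zinc finger gene, by 3.22 ± 0.29. The rule also named MAP1LC3B2 (log2 fold change -4.92), PABPC3 (-4.09) and UQCRHL (-3.29), which share 8.81%, 5.51% and 5.69% of their words with other genes and are uncertain.

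**Figure D2:**
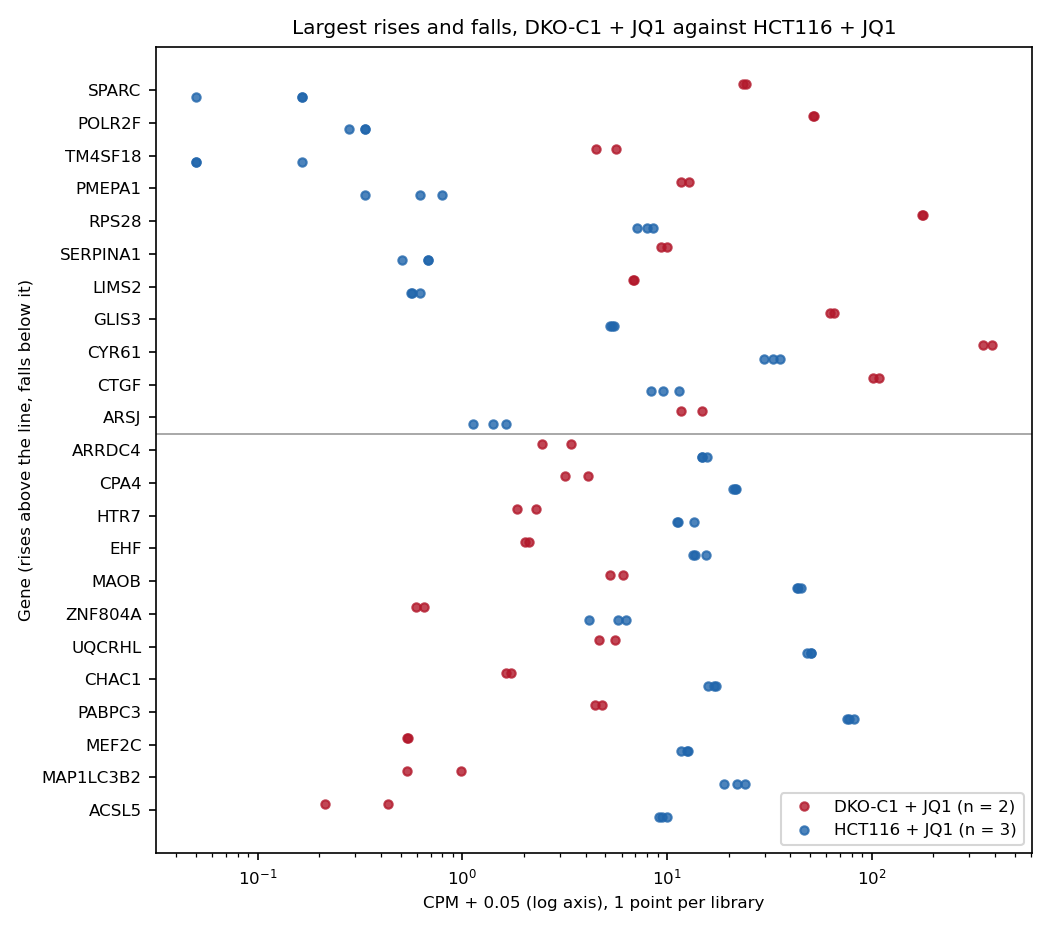
Level of the genes described among the 12 largest rises and 12 largest falls of unflagged protein-coding genes (CPM plus 0.05, log axis), 1 point per library, DKO-C1 with JQ1 (n = 2) above HCT116 with JQ1 (n = 3) in each row. The libraries do not overlap for any gene shown, as the rule requires.

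The largest rises and falls among flagged genes are given as a description. PYURF, which shares exons with PIGY, had 1416 counts over the DKO-C1 libraries with JQ1 and none over those of HCT116 with JQ1, at least 677-fold higher against a floor of 3 counts over the group. WDR83OS, COG8 and ECE2 had no count in DKO-C1 with JQ1 and 1764, 708 and 390 counts in HCT116 with JQ1, which is at least 410-fold, 165-fold and 90.7-fold lower. The COG8 entry meant here overlaps another entry of the same name on its own strand, so its counts do not cover COG8 as a whole. PTP4A1, a phosphatase gene, stood at 0.329 and 0.0542 CPM in DKO-C1 with JQ1, against 331, 335 and 360 CPM in HCT116 with JQ1. The 4 lower genes share 55.9% to 93.3% of their words with transcripts of overlapping or copied genes. ATRIP (log2 fold change 6.49), PSMC1 (5.29) and RPS26 (4.79) were the next flagged rises and share 16.9% to 25.7% of their words. Each of the 8 moved the same way without JQ1, and none is read as a change of expression.

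YAP and TEAD targets, actin and contractile genes and extracellular matrix genes had more rises than falls in DKO-C1 under JQ1 relative to total RNA, a balance that ERCC scaling turned in all 3 lists. Of 26 tested targets of YAP and TEAD, factors that respond to cell tension and contact, 16 rose and 1 fell. Their median log2 fold change was 0.45, against 0.02 over all tested genes and 0.07 over unflagged protein-coding genes. ERCC scaling turned the balance to 5 higher and 15 lower. Beside CTGF and CYR61, CRIM1, a membrane-bound BMP regulator, stood at 258 and 262 CPM in DKO-C1 with JQ1 and at 83.8, 89.2 and 94 CPM in HCT116 with JQ1 (log2 fold change 1.54 ± 0.07). FSTL1, a secreted follistatin-like protein gene, rose by 1.65 ± 0.06 but is flagged for an overlap with MIR198. ANKRD1, a nuclear ankyrin-repeat gene and common YAP reporter, stood at 2.14 and 2.06 CPM in DKO-C1 with JQ1, against 0.115, 0.114 and 0.0568 CPM in HCT116 with JQ1. The summed level of unflagged members was 2580 and 2630 CPM in DKO-C1 with JQ1 and 1710 to 1920 CPM in HCT116 with JQ1.

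Of 25 actin and contractile genes, 20 rose and none fell relative to total RNA (median 0.46), against 5 higher and 16 lower under ERCC scaling. MYL9, a regulatory myosin light chain gene, stood at 197 and 206 CPM in DKO-C1 with JQ1, against 42.8, 37.0 and 35.1 CPM in HCT116 with JQ1, a log2 fold change of 2.39 ± 0.08. TAGLN, the actin-binding protein transgelin, stood at 17.3 and 18 CPM in DKO-C1 with JQ1 and at 3.49, 3.70 and 3.12 CPM in HCT116 with JQ1 (2.36 ± 0.11), with PCSK7 on the opposite strand. TAGLN2 rose by 1.16 ± 0.06, and CNN3, a calponin gene, by 0.89 ± 0.05, which became -0.015 under ERCC scaling. The groups did not overlap for any of these 4 genes. Of 26 extracellular matrix genes, 14 rose and 1 fell (median 0.60), against 4 higher and 12 lower under ERCC scaling. COL13A1, a transmembrane collagen gene, rose by 2.88 ± 0.09 on the log2 scale, FBLN1, the matrix glycoprotein fibulin-1, by 2.56 ± 0.09, LAMB1, a laminin chain gene that overlaps DLD on the opposite strand, by 1.27 ± 0.07 and COL6A2 by 0.97 ± 0.07.

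TGF-beta and SMAD targets gave 13 rises and 2 falls among 19 tested (median 0.94), and 7 higher and 6 lower under ERCC scaling. SMAD7, an inhibitory SMAD gene, stood at 14.8 and 16.2 CPM in DKO-C1 with JQ1, against 4.12, 4.90 and 4.72 CPM in HCT116 with JQ1 (1.76 ± 0.14). ID2, an inhibitor of basic helix-loop-helix factors, was at 60.0 and 64.3 CPM in DKO-C1 with JQ1 and at 135, 131 and 143 CPM in HCT116 with JQ1, a fall of 1.13 ± 0.07 on the log2 scale. Of 15 genes of the epithelial-mesenchymal axis, 12 rose and 1 fell (median 1.36), and 7 were higher and 3 lower under ERCC scaling. Mesenchymal genes rose, with FN1 (fibronectin) at 25.6 and 28.7 CPM in DKO-C1 with JQ1 and at 8.02, 8.08 and 8.86 CPM in HCT116 with JQ1, SNAI2 (1.62 ± 0.22) and VIM (vimentin, 0.73 ± 0.18). The epithelial cadherin CDH1 rose with them, at 132 and 133 CPM in DKO-C1 with JQ1 and at 86.9, 83.6 and 86.7 CPM in HCT116 with JQ1 (0.63 ± 0.05), while CDH1 and VIM were below 0 under ERCC scaling. SNAI2 and VIM were low in all these libraries, at 0.909 to 4.34 CPM.

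Genes downstream of growth factor signalling moved in both directions. Of 17 MAPK feedback and output genes, 10 rose and 1 fell (median 0.27), against 1 higher and 10 lower under ERCC scaling. DUSP6, a phosphatase of ERK, stood at 249 and 234 CPM in DKO-C1 with JQ1, against 81.4, 88.9 and 97.4 CPM in HCT116 with JQ1 (log2 fold change 1.44 ± 0.06). DUSP4 rose by 1.24 ± 0.06, EPHA2, an ephrin receptor gene, by 1.13 ± 0.09 and ETV4, an ETS factor gene that overlaps DHX8 on the opposite strand, by 0.95 ± 0.08. The EGF receptor ligands AREG and EREG fell instead. AREG stood at 21.2 and 19.7 CPM in DKO-C1 with JQ1, against 51.6, 56.9 and 62.6 CPM in HCT116 with JQ1 (log2 fold change -1.48 ± 0.09). EREG stood at 133 and 121 CPM in DKO-C1 with JQ1, against 251, 281 and 303 CPM in HCT116 with JQ1 (-1.13 ± 0.08). Among the 14 tested ligands and ERBB receptors, 6 rose and 3 fell (median -0.06), and 2 were higher and 11 lower under ERCC scaling. The rises included BTC (0.88 ± 0.19) and EGF itself, for which DKO-C1 with JQ1 held 16 counts and HCT116 with JQ1 held 1, a ratio of 22.9 (95% interval 3.56 to 962, counting error only).

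13 of 15 tested genes of MHC class I antigen presentation rose and none fell (median 0.43), whereas none was higher and 7 were lower under ERCC scaling. B2M, the invariant light chain, stood at 439 and 426 CPM in DKO-C1 with JQ1, against 331, 315 and 326 CPM in HCT116 with JQ1 (0.42 ± 0.05). TAPBP, the tapasin chaperone gene, rose by 0.76 ± 0.06, and HLA-B (1.04 ± 0.06) and HLA-C (0.64 ± 0.07) were higher but are flagged because each overlaps the other in the annotation. Of 15 NF-kappaB targets and chemokines, 8 rose and 2 fell (median 0.48), against 2 higher and 8 lower under ERCC scaling. TNFAIP2 stood at 73.9 and 77.8 CPM in DKO-C1 with JQ1 and at 27.1, 26.6 and 24.7 CPM in HCT116 with JQ1 (1.54 ± 0.07). NFKB2, which encodes an NF-kappaB subunit, rose by 0.58 ± 0.07, and CXCL8, the chemokine interleukin-8, was at 2.14 and 1.79 CPM in DKO-C1 with JQ1 and at 0.115, 0.626 and 0.114 CPM in HCT116 with JQ1. SOD2, mitochondrial superoxide dismutase, was lower by 0.63 and is flagged.

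Integrated stress response, aminoacyl-tRNA synthetase, ribosome biogenesis and NRF2 genes had more falls than rises in DKO-C1 under JQ1 relative to total RNA. The same held under ERCC scaling, where 13565 of the 17198 tested genes were lower, so it does not set these lists apart. Of 26 genes of the integrated stress response, which ATF4 drives when eIF2 is phosphorylated, 18 fell and 3 rose, and 24 were lower under ERCC scaling. Their median was -0.63, against 0.02 over all tested genes and 0.07 over unflagged protein-coding genes. After CHAC1, GDF15, a secreted stress cytokine gene, stood at 17.3 and 17.6 CPM in DKO-C1 with JQ1, against 63.7, 57.7 and 61.9 CPM in HCT116 with JQ1 (-1.81 ± 0.10). SLC3A2, the heavy chain of amino acid transporters, stood at 182 and 190 CPM in DKO-C1 with JQ1, against 343, 330 and 353 CPM in HCT116 with JQ1 (-0.88 ± 0.06). ATF4 itself (-0.65 ± 0.06), DDIT3, which encodes CHOP (-1.82 ± 0.14), and ASNS, asparagine synthetase (-2.36 ± 0.17), were lower too but are flagged for shared or overlapping sequence. Unflagged members summed to 1360 and 1420 CPM in DKO-C1 with JQ1 and to 2240 to 2440 CPM in HCT116 with JQ1. The amino acid transporter gene SLC7A5 held the largest share of this sum. It stood at 621 and 663 CPM in DKO-C1 with JQ1, against 1210, 1150 and 1290 CPM in HCT116 with JQ1. Aminoacyl-tRNA synthetases, which load amino acids on tRNAs, fell in 16 of 20 cases with no rise (median -0.34). YARS stood at 204 and 198 CPM in DKO-C1 with JQ1, against 344, 349 and 353 CPM in HCT116 with JQ1 (-0.80 ± 0.05), and CARS (-0.75 ± 0.05), GARS (-0.71 ± 0.05) and SARS (-0.51 ± 0.05) fell likewise.

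Ribosome biogenesis genes fell in 33 of 39 cases with 1 rise (median -0.34), and 38 were lower under ERCC scaling. PES1, a factor of large-subunit assembly, stood at 130 and 128 CPM in DKO-C1 with JQ1, against 219, 200 and 212 CPM in HCT116 with JQ1 (-0.70 ± 0.06). NOLC1, a nucleolar phosphoprotein gene, fell by 0.60 ± 0.05 and NAT10, an RNA acetyltransferase gene, by 0.59 ± 0.05. NOP2 was lower by 5.69 but is flagged, with 49% of its words shared with an overlapping gene. Of 20 NRF2 antioxidant genes, 12 fell and 1 rose (median -0.36), and 19 were lower under ERCC scaling. NQO1, a quinone reductase gene, stood at 363 and 354 CPM in DKO-C1 with JQ1, against 685, 715 and 740 CPM in HCT116 with JQ1 (-0.99 ± 0.05). GSR, glutathione reductase (-0.47 ± 0.05), and PRDX1, a peroxiredoxin gene (-0.66 ± 0.06), fell, and the flagged FTL, ferritin light chain, was lower by 1.11. In each of these 4 groups, DKO-C1 and HCT116 libraries with JQ1 did not overlap in the summed level of unflagged members. On the opposite strand, YARS overlaps S100PBP, PES1 overlaps TCN2 and PRDX1 overlaps MMACHC.

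**Figure D3:**
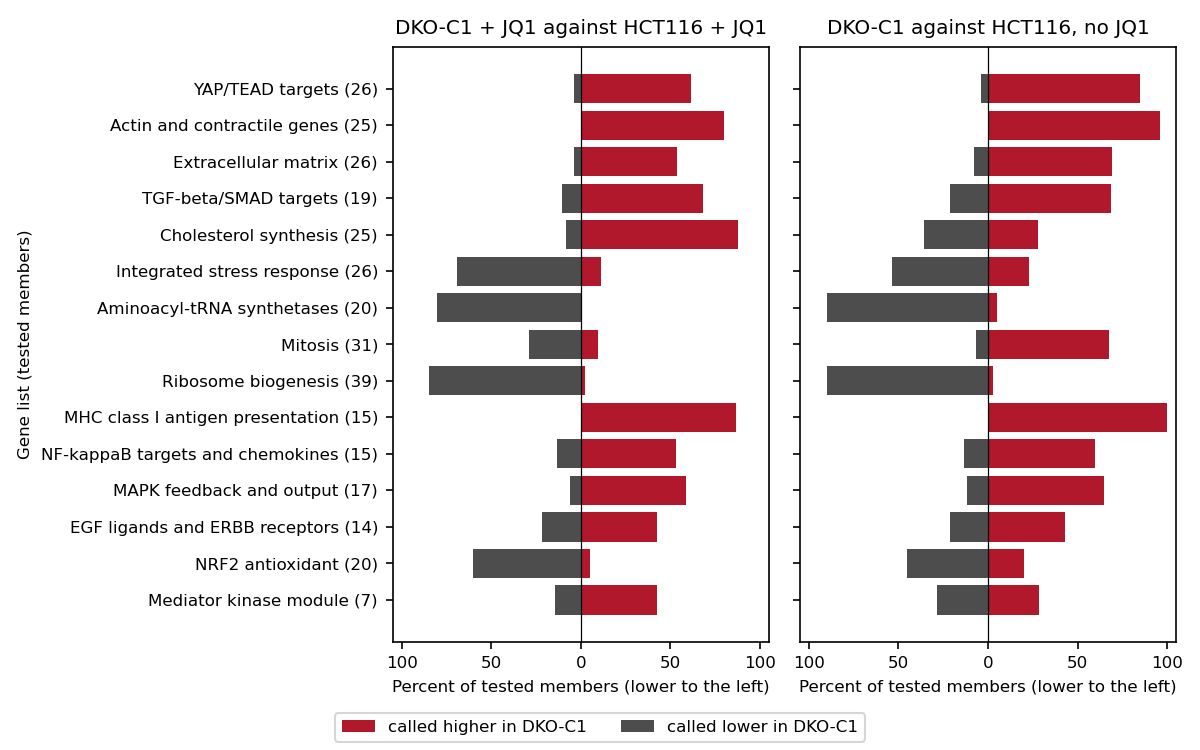
Percent of tested members of 15 gene lists called higher (right of 0) or lower (left of 0) in DKO-C1 against HCT116, with JQ1 in the left panel and without JQ1 in the right one, scaled to total RNA. Numbers of tested members follow the names. Of cholesterol synthesis genes, 22 of 25 were called higher with JQ1 and 7 without, and of mitosis genes 3 of 31 with JQ1 and 21 without. Among these 15 lists, with ERCC scaling under JQ1, only the actin, matrix, YAP and TEAD, TGF-beta, NF-kappaB, MAPK, EGF and cholesterol lists had any member called higher.

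The genotype effect under JQ1 resembled the one measured without JQ1 in other libraries of the same subline. Of 3260 unflagged genes that rose under JQ1, 2532 were also called higher in DKO-C1 without JQ1, which is 77.7% of these and 70.1% of the 3610 rises there. Of 1860 falls, 1512 were shared, which is 81.3% of these and 57.4% of the 2635 falls without JQ1. The background without JQ1 was 34.1% higher and 24.9% lower in DKO-C1, and 36.4% higher and 25.8% lower in DKO-C2. Over all tested genes without JQ1, 4638 genes were higher in DKO-C1 (27%) and 4972 lower (28.9%). Of the 506 rises of at least 2-fold, 456 (90.1%) were called higher in DKO-C1 without JQ1 and 459 (90.7%) in DKO-C2, and of the 200 falls, 166 (83%) and 164 (82.0%) were called lower. Across the 10583 genes, which are not independent replicates, log2 fold changes with and without JQ1 correlated at r = 0.792 for DKO-C1. The libraries are distinct, but all DKO libraries share the low pseudogene share described above, and DKO-C1 is the same subline in both.

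The difference between the genotype effects with and without JQ1 was called for 1478 of 17198 genes, 670 with a positive difference (3.9%) and 808 with a negative one (4.7%). Leaving out replicate 1 of DKO-C1 with JQ1 brought the number to 935, and ERCC scaling brought it to 142, of which 83 were positive and 59 negative. Among unflagged genes, 537 were positive (5.07%) and 665 negative (6.28%), 1202 in all. Of these, 530 were called in the same direction with and without JQ1, 380 of them with the smaller effect under JQ1 and 150 with the larger. 407 were called only without JQ1, 184 only under JQ1 and 80 in opposite directions. Of the 706 unflagged genes that changed at least 2-fold under JQ1, 135 (19.1%) had a called difference.

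**Figure D4:**
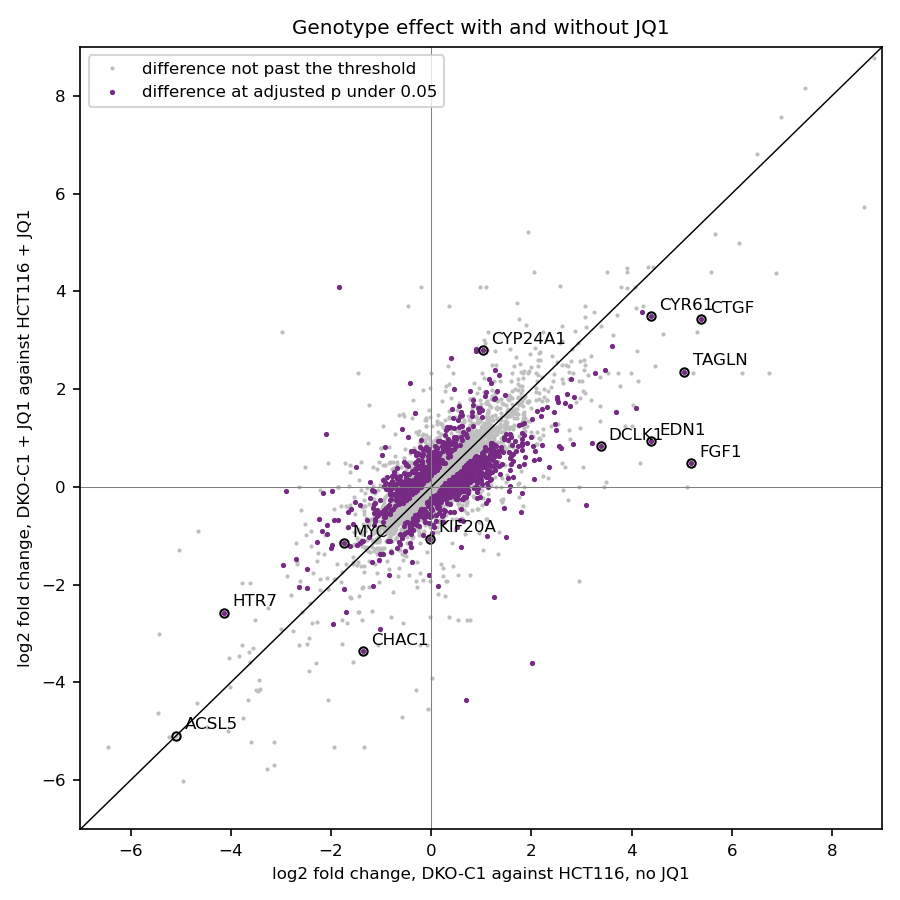
Log2 fold change of each of 10583 unflagged protein-coding genes in DKO-C1 against HCT116, without JQ1 (horizontal) and with JQ1 (vertical), with the line of equal effect. Purple points have a called difference (1202 genes), and 9 genes lie outside the axes. CTGF, TAGLN, EDN1 and FGF1 lie below the line on the right, CYP24A1 above it, and CHAC1 below it on the left.

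Cholesterol synthesis had more called positive differences than any other of the 41 gene lists. Under JQ1, 22 of 25 rose and 2 fell (median 0.48) in DKO-C1 relative to total RNA, while ERCC scaling gave 1 higher and 14 lower. Without JQ1, 7 were higher and 9 lower (median -0.01). The difference was called positive for 19 and negative for 1 (median 0.45 against 0.03 over all tested genes), and under ERCC scaling it was positive for 8 and negative for none. Summed over unflagged members, the level was 2480 and 2470 CPM in DKO-C1 with JQ1 and 1740 to 1790 CPM in HCT116 with JQ1, and it was 1980 to 2030 CPM in DKO-C1 and 2130 to 2170 CPM in HCT116 without JQ1. HCT116 was thus lower with JQ1 than without, and DKO-C1 was higher with JQ1 than without, with no overlap between any of the 4 groups.

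HMGCS1, the synthase that makes HMG-CoA, stood at 81.9 and 75.3 CPM in DKO-C1 with JQ1, against 52.8, 58.6 and 55.1 CPM in HCT116 with JQ1. Without JQ1 it was lower in DKO-C1, at 79.1, 78.3 and 74.6 CPM against 96.7, 94.7 and 92.9 CPM in HCT116, and the difference of the effects was 0.79 ± 0.09 (adjusted p = 6.53e-08). MVD, the decarboxylase of mevalonate diphosphate, stood at 117 and 131 CPM in DKO-C1 with JQ1, against 75.6, 68.8 and 67.8 CPM in HCT116 with JQ1. Its levels overlapped without JQ1, at 63.0 to 73.7 CPM in DKO-C1 and 70.9 to 75.3 CPM in HCT116, and the difference was 0.92 ± 0.09. The difference was 0.76 ± 0.10 for ACAT2, an acetoacetyl-CoA thiolase gene whose exons overlap SOD2 and TCP1 on the opposite strand. SQLE, squalene epoxidase, was lower in DKO-C1 under JQ1, at 42.8 and 39.9 CPM in DKO-C1 with JQ1 and at 93.6, 92.6 and 97.2 CPM in HCT116 with JQ1 (-1.19 ± 0.06). Without JQ1 it stood at 50.2, 49.6 and 49.9 CPM in DKO-C1 and at 140, 140 and 136 CPM in HCT116, so its difference was positive like that of most of the list, at 0.28.

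Mitosis genes went the other way. Under JQ1, 3 of 31 rose and 9 fell (median -0.05), while without JQ1 21 rose and 2 fell (median 0.26), and the difference was negative for 21 and positive for none, against 1 negative under ERCC scaling. ERCC scaling under JQ1 gave 31 lower. Unflagged members summed to 4850 and 4680 CPM in DKO-C1 with JQ1, against 4890, 5090 and 5240 CPM in HCT116 with JQ1, and to 6440, 6320 and 6390 CPM in DKO-C1 against 5220, 5210 and 5210 CPM in HCT116 without JQ1. KIF20A, a kinesin gene of cytokinesis, stood at 73.8 and 74.2 CPM in DKO-C1 with JQ1, against 154, 154 and 154 CPM in HCT116 with JQ1. Without JQ1 it stood at 139, 139 and 137 CPM in DKO-C1 and at 141, 140 and 142 CPM in HCT116, so DKO-C1 was lower and HCT116 higher with JQ1 than without, with no overlap, and the difference was -1.03 ± 0.07 (adjusted p = 1.21e-13). KIF20A overlaps BRD8 and CDC23 on the opposite strand. PLK1, a mitotic kinase gene, stood at 176 and 176 CPM in DKO-C1 with JQ1, against 244, 241 and 251 CPM in HCT116 with JQ1 (-0.48 ± 0.06), with ERN2 on the opposite strand. CDC20, an activator of the anaphase-promoting complex, fell by 0.55 ± 0.06 and CCNB1, cyclin B1, by 0.27 ± 0.05. TOP2A and CCNB2 had log2 fold changes of -0.01 ± 0.06 and -0.01 ± 0.05 under JQ1 and of 0.53 and 0.28 without it. PRC1 and NUSAP1 are flagged, with 50.4% and 54.4% of their words shared, and were lower with and without JQ1.

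**Figure D5:**
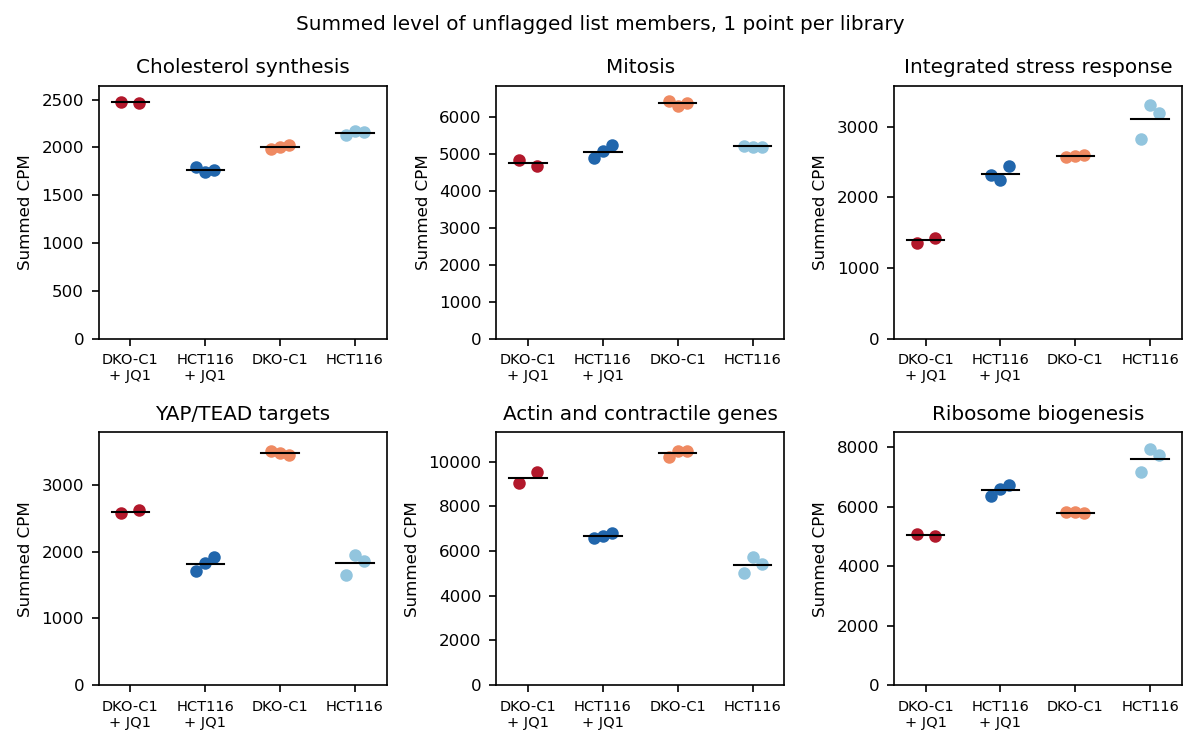
Summed level (CPM, axes from 0) of the unflagged members of 6 gene lists in DKO-C1 with JQ1, HCT116 with JQ1, DKO-C1 and HCT116, 1 point per library with the group mean as a line, scaled to total RNA. Cholesterol synthesis was highest in DKO-C1 with JQ1 (2480 and 2470 CPM), and mitosis was highest in DKO-C1 without JQ1 (6320 to 6440 CPM).

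The cytoskeletal and stress groups also differed with JQ1. Of the actin genes, 15 had a negative difference and none a positive one, of YAP and TEAD targets 16 and none, and of matrix genes 8 and none, against 2, 3 and none negative under ERCC scaling. Without JQ1 the genotype effect was larger for these lists, with 24, 22 and 18 members called higher. TAGLN stood at 111, 101 and 107 CPM in DKO-C1 without JQ1 and at 3.09, 3.18 and 3.32 CPM in HCT116, so its level in HCT116 was near that with JQ1. Its effect was smaller under JQ1 by 2.69 ± 0.16 on the log2 scale (adjusted p = 5.14e-15). CTGF stood at 194, 180 and 185 CPM in DKO-C1 without JQ1 and at 1.84, 6.80 and 4.71 CPM in HCT116, and its difference was -1.96 ± 0.21. The integrated stress response had 10 negative differences and none positive (3 and none under ERCC scaling), and CHAC1 stood at 9.74, 9.54 and 9.62 CPM in DKO-C1 without JQ1 and at 22.0, 26.7 and 25.4 CPM in HCT116, a difference of -2.0 ± 0.21. NQO1 had a difference of -0.82 ± 0.07, with 326, 318 and 335 CPM in DKO-C1 without JQ1 and 362, 364 and 376 CPM in HCT116. AREG and EREG had positive ones of 1.23 ± 0.12 and 1.16 ± 0.11, since EREG stood at 215, 197 and 197 CPM in DKO-C1 without JQ1 and at 933, 1090 and 953 CPM in HCT116.

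The 5 largest negative and 5 largest positive differences included genes whose effect under JQ1 was absent, smaller or of the other sign. CYP24A1, the vitamin D 24-hydroxylase gene (chr20:54153449-54173973), stood at 196 and 202 CPM in DKO-C1 with JQ1, against 30.1, 27.6 and 28.6 CPM in HCT116 with JQ1. Without JQ1 it stood at 321, 309 and 315 CPM in DKO-C1 and at 136, 167 and 157 CPM in HCT116, and the difference was 1.76 ± 0.08 (adjusted p = 1.28e-17). PCDH7, a protocadherin gene, stood at 26.8 and 27.2 CPM in DKO-C1 with JQ1 and at 15.3, 17.6 and 18.8 CPM in HCT116 with JQ1. It was lower in DKO-C1 without JQ1, at 69.8, 64.9 and 68.4 CPM against 136, 132 and 133 CPM in HCT116, a difference of 1.63 ± 0.10.

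EGR1, an immediate early gene, stood at 47.1 and 97.9 CPM in DKO-C1 with JQ1, a wide spread, and at 66.6, 89.4 and 75.2 CPM in HCT116 with JQ1. Without JQ1 it stood at 7.94, 8.97 and 8.70 CPM in DKO-C1 and at 26.1, 40.6 and 34.3 CPM in HCT116 (difference 1.89 ± 0.30), and without replicate a of DKO-C1 with JQ1 it was called lower under JQ1 (-0.71). NRP1, a receptor of semaphorins and VEGF, was below 1.2 CPM in all JQ1 libraries. Its difference of 1.73 ± 0.39 was not called without replicate 1 of DKO-C1 with JQ1 (1.31), and without replicate a NRP1 was called higher under JQ1 (1.14). On the negative side, FGF1, a fibroblast growth factor gene, stood at 0.0548 and 0.163 CPM in DKO-C1 with JQ1 and at 0.0573, 0.171 and 0 CPM in HCT116 with JQ1, against 6.46, 6.68 and 7.04 CPM in DKO-C1 and 0.105, 0.219 and 0.214 CPM in HCT116 without JQ1. Its difference of -4.70 ± 1.25 was not called without replicate 2 of HCT116 with JQ1 (-3.47). EDN1, the vasoconstrictor endothelin-1, stood at 1.20 and 0.922 CPM in DKO-C1 with JQ1, against 0.687, 0.512 and 0.455 CPM in HCT116 with JQ1, and without JQ1 at 13.1, 12.5 and 11.7 CPM in DKO-C1, against 0.315, 0.822 and 0.642 CPM in HCT116 (difference -3.44 ± 0.49). DCLK1, a doublecortin-like kinase gene, stood at 1.59 and 1.68 CPM in DKO-C1 with JQ1 and at 0.973, 0.854 and 0.909 CPM in HCT116 with JQ1, with 27.1 to 29.4 CPM in DKO-C1 and 1.73 to 3.73 CPM in HCT116 without JQ1 (difference -2.54 ± 0.34). The rises of EDN1 (0.94) and DCLK1 (0.84) under JQ1 lost their call without replicate 1 of DKO-C1 with JQ1 (0.73 and 0.88), that of DCLK1 also without replicate a (0.80), and that of EDN1 also without replicate 2 or 3 of HCT116 with JQ1 (0.89 and 0.82). NWD1 had a difference of -2.32 ± 0.62 at under 1 CPM in every JQ1 library, which was not called without replicate 3 of HCT116 with JQ1 (-2.03) or replicate a of DKO-C1 with JQ1 (-2.08). DKO-C2 with JQ1 was not analysed here, so these differences rest on DKO-C1 alone.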

How the data were processed

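The authors deposited 1 table of raw counts per gene and per ERCC transcript, with no normalisation. Per the submitters' processing notes, reads were aligned to hg38 with STAR 2.5.2 and counted with featureCounts of Subread 1.6.3; per the labels they were paired and 100 bases long. No source used here gives the strand setting, the treatment of multi-mapping reads or the annotation release. The table holds 58131 features (92 of them ERCC), and 26 columns were used, 22 matched to a sample by name and 4 to a group only. 1 of those 4 is the second DKO-C1 library with JQ1, called replicate a because its number, 3, is in no title. 3 carry a DKO clone number that no title has and were taken as DKO-C2 by elimination.

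The 26 libraries in 9 groups were fitted together in a quasi-likelihood model of edgeR 4.0.16, run in R 4.3.3, with TMM factors and filterByExpr (minimum count 10, minimum total 15), which left 17198 genes. Tests were two-sided, with Benjamini-Hochberg adjustment over all tested genes and a threshold of 0.05. The difference of genotype effects is the interaction term. CPM use TMM effective library sizes. Shared sequence and overlap were computed from GENCODE release 29, using 1 in 8 words of 50 bases. The fit recovered known changes in counts simulated from its own mean levels and spread. These counts held no other difference between groups, so the check covers only the calculation. Libraries within a group differed by 2.86 to 9.38 in chi-square per degree of freedom, so none was a copy of another.

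The genes named in full are the 12 largest rises and falls among unflagged called genes with at least 5 CPM and non-overlapping libraries, 4 flagged genes per direction, the 5 largest differences per direction, up to 4 called members per list with the lowest adjusted p, and defining members. Some genes this rule takes are not reported here, but counts and sums over genes include them. Members and the 41 lists were chosen with earlier results of these data known. Alternatives were DESeq2 1.42.0 (size factors and Wald test), limma 3.58.1 voom, other filters, ERCC factors, fewer groups or genes, a replicate block and leaving out each library. Intervals and floors cover counting error only.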

Additional observations from a re-analysis of the deposited data

Results flagged for a closer look

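In 55 named genes the genotype effect under JQ1 differed from that without JQ1 by edgeR's interaction term (adjusted p under 0.05), 17 with a positive and 38 with a negative difference. Values are log2 fold changes of DKO-C1 against HCT116 with JQ1 minus those without JQ1, and their causes were not tested.

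Cholesterol genes had positive differences of 0.92 (MVD), 0.79 (HMGCS1), 0.76 (ACAT2) and 0.28 (SQLE). Mitosis genes had negative ones of -1.03 (KIF20A), -0.54 (TOP2A), -0.52 (CDC20), -0.49 (PLK1), -0.37 (CCNB1), -0.30 (CCNB2), -0.33 (PRC1) and -0.27 (NUSAP1).

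Members of the actin, matrix, YAP and TEAD, TGF-beta and epithelial-mesenchymal lists had -2.69 (TAGLN), -2.47 (SNAI2), -1.96 (CTGF), -1.07 (MYL9), -0.96 (VIM), -0.96 (FN1), -0.90 (CYR61), -0.74 (COL13A1), -0.57 (CRIM1), -0.48 (ID2), -0.31 (CNN3) and -0.27 (CDH1). Stress response genes had -2.0 (CHAC1), -0.97 (GDF15), -0.72 (DDIT3) and -0.52 (SLC3A2), and aminoacyl-tRNA synthetases -0.43 (CARS), -0.37 (SARS), -0.25 (YARS) and -0.24 (GARS). NRF2 genes had -0.82 (NQO1), -0.48 (FTL) and -0.29 (PRDX1).

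Signalling genes had positive differences of 1.23 (AREG), 1.16 (EREG), 0.73 (TNFAIP2), 0.42 (DUSP6) and 0.30 (SOD2), and MYC had 0.58. Among the remaining genes the difference was 1.89 (EGR1), 1.76 (CYP24A1), 1.73 (NRP1), 1.63 (PCDH7), 1.56 (HTR7), 0.68 (MED12L) and 0.47 (RPS26, which is flagged for shared sequence). It was -4.70 (FGF1), -3.44 (EDN1), -2.54 (DCLK1), -2.32 (NWD1), -0.88 (CPA4), -0.84 (EHF) and -0.62 (GLIS3).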

How the results depend on the processing

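Under JQ1, the 8036 calls became 13893 with ERCC factors, 3150 for genes with little shared sequence and no overlap on either strand, 2598 with under 1% shared words (chosen after seeing the data) and 2398 at a 2-fold minimum, where the 2 limits on shared sequence leave fewer genes and the last applies a stricter rule to the same genes. The 9610 calls of DKO-C1 without JQ1 became 14995, 3891, 3187 and 2735 in that order. The 10127 calls of DKO-C2 became 4081, 3387 and 3006 under the gene and fold limits. The 1478 called differences became 142, 876, 724 and 166. The 5120 unflagged calls became 8825, 3150, 2598 and 706. Leaving out 1 library at a time gave 6477 to 7642 calls under JQ1, 4032 to 4833 unflagged, 8915 to 9154 for DKO-C1, 9381 to 10011 for DKO-C2 and 935 to 1448 differences. Small counts of list members also moved: ECM genes called lower were 0 to 2 rather than 1, and MAPK and YAP genes called lower and NRF2 genes called higher were 2 rather than 1 without 1 library.

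Of 117 named values, all kept their call with DESeq2, by size factors or the Wald test. A reversal of direction was counted only where the main or the alternative fit called the value, so sign changes of uncalled values are not covered. No such reversal occurred outside ERCC scaling, where 16 did: CDK19 -0.85, MED12 -0.74, MED13 -0.52, MED12L -0.12, PCDH7 -0.26, DCLK1 -0.079, NFKB2 -0.34, HLA-C -0.28, B2M -0.50, TAPBP -0.16, BTC -0.037, CNN3 -0.015, HMGCS1 -0.41, MVD -0.11, VIM -0.18 and CDH1 -0.28. ERCC scaling took the call from 9 more without reversal: EDN1 0.03, HLA-B 0.12, DUSP4 0.32, ETV4 0.02, EPHA2 0.22, TAGLN2 0.25, COL6A2 0.05, ACAT2 0.31 and the difference of NWD1 (-2.22). EDN1 also lost its call with limma voom (0.92), and EDN1 and MED12 with only the libraries compared (0.90 and 0.14) or only protein-coding genes (0.89 and 0.13). Both lost it under the 2 limits on shared sequence, at 0.853 and 0.851 for EDN1 and 0.092 and 0.091 for MED12. MED12 lost it with no filter on low counts (0.19) and with a mean of at least 5 CPM in a group (0.16). Replicate numbers pair nothing in the labels, and deviations of same-numbered libraries correlated at -0.245 and -0.225. A replicate block over the 4 groups of HCT116 and DKO-C1 gave 7666 calls under JQ1, 4852 unflagged, 9501 without JQ1 and 1257 differences, and no named value changed its call. Depth limits genes near 0 counts in a group.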

Other observations

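Further groups under JQ1 are given by their counts relative to total RNA. Over all tested genes 24.3% were called higher and 22.4% lower, and over unflagged protein-coding genes 30.8% and 17.6%. Lysosome and autophagy genes rose in 17 of 28 cases and fell in 6 (median log2 fold change 0.25), and the unfolded protein response rose in 15 of 23 and fell in 2 (median 0.25), whereas under ERCC scaling neither had a member called higher. Semaphorins, neuropilins and plexins, guidance ligands and their receptors, rose in 16 of 25 cases and fell in 1 (median 0.34, and 1 higher and 14 lower under ERCC scaling). Interferon response genes rose in 9 of 22 cases with no fall (median 0.37), and Wnt targets rose in 9 of 16 and fell in 5 (median 0.39). Under ERCC scaling, interferon genes were never called higher and 11 were lower, and Wnt targets were 2 higher and 9 lower.

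Targets of p53 fell in 17 of 28 cases and rose in 6 (median -0.29). All tested p53 targets summed to 1490 and 1450 CPM in DKO-C1 with JQ1 and to 1520 to 1560 CPM in HCT116 with JQ1. The sums of the unflagged ones overlapped, at 1350 and 1320 CPM against 1330 to 1370 CPM. Serine and one-carbon genes fell in 9 of 18 cases and rose in 2 (median -0.27). Mitochondrially encoded genes fell in 9 of 13 cases with no rise (median -0.34). Only 3 of these 13 genes are unflagged, and 1 of the 3 fell (median -0.21). Under ERCC scaling 27 p53 targets, 17 serine and one-carbon genes and 13 mitochondrially encoded genes were called lower, and none was called higher. Nuclear-encoded genes of oxidative phosphorylation were lower in 13 of 32 cases with JQ1 and in 24 without, and 5 of them had a called positive difference. Under ERCC scaling 32 were lower with JQ1 and none had a called difference. Replication and S-phase genes gave 5 rises and 10 falls among 33, and fatty acid synthesis genes 9 rises and 5 falls among 19, with 7 positive differences and 1 negative. Under ERCC scaling none of the replication genes was higher and 33 were lower, and the balance of the fatty acid genes turned to 1 higher and 14 lower, with 1 positive difference and none negative. Core Mediator genes gave 6 rises and 4 falls among 26, and genes of BET proteins and P-TEFb 3 rises and 5 falls among 18. These stand beside 24.3% higher and 22.4% lower over all tested genes, and 30.8% and 17.6% over unflagged protein-coding genes. Under ERCC scaling the Core Mediator balance turned to none higher and 25 lower, and that of BET proteins and P-TEFb was none higher and 18 lower.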
